A study of Mus with 9 samples.

Results

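The genes described here encode enzymes that modify and crosslink collagen: the lysyl oxidases Lox, Loxl1, Loxl2, Loxl3 and Loxl4, the lysyl hydroxylases Plod1, Plod2 and Plod3, and the prolyl 4-hydroxylase alpha subunits P4ha1 and P4ha3. They were taken by gene symbol from the deposited table, and all 10 were found among its 55421 genes. All 10 also passed the filter on low counts, which left 19326 tested genes.

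Messenger RNA was sequenced from tissue labelled atria, or left atrium in the series text, of wild-type male C57BL/6J mice aged 8 to 10 weeks. There were 3 groups of 3 libraries. Sham mice had surgery without ligation and received vehicle, MI mice had a lasting ligation of the left anterior descending coronary artery and received vehicle, and MI_ART mice had the ligation and received artesunate, an antimalarial drug, by intraperitoneal injection. The Sham libraries (titled CON) and the MI_ART libraries are numbered 1 to 3, and the MI libraries are numbered 2 to 4. Artesunate was dissolved in dimethyl sulfoxide. The descriptions disagree on its schedule (25 mg/kg daily for 7 days from surgery, or 10 mg/kg every other day from 2 days before surgery to day 7), on the RNA extraction and in part on the species, and do not state the day of harvest. No source used here says whether the libraries are from separate animals. The p-values therefore measure spread among these libraries only, which may be technical.

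Fibrillar collagen is built in the endoplasmic reticulum, where prolyl 4-hydroxylases hydroxylate proline, which stabilises the triple helix, and lysyl hydroxylases hydroxylate lysine, which prepares sites for sugars and crosslinks. Outside the cell, the copper-dependent lysyl oxidases oxidise lysine and hydroxylysine in collagen and elastin, and the products join into covalent crosslinks. In the infarcted heart, fibroblasts lay down collagen that these enzymes stiffen into scar.

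Libraries held 68046341 to 83685313 counted reads. Levels are given as CPM, counts scaled to a common library size after a correction for composition (edgeR's TMM factors), so they compare one gene between libraries but not genes of different length. At this depth a count of 3 reads corresponded to 0.0322 to 0.0592 CPM. The summed level of 6 atrial muscle markers varied within every group. It was 25100 CPM in MI 4 against 13443 to 13693 CPM in the other MI libraries, 12382 CPM in MI_ART 2 against 1312 to 2862 CPM in MI_ART 3 and MI_ART 1, and 1751 CPM in Sham 2 against 6072 to 7338 CPM in the other Sham libraries. Most of each sum was Nppa, a natriuretic peptide gene (1293 of 1312 CPM in MI_ART 3). The atrial muscle genes Myl7 and Sln were nearly absent from MI_ART 3, at 1.96 and 0.740 CPM. All other libraries had 168 to 989 CPM of Myl7 and 95.8 to 531 CPM of Sln. The 5 ventricular muscle markers were also present, at 7579 to 8445 CPM in Sham, 1657 to 3033 CPM in MI and 2923 to 4476 CPM in MI_ART. Ventricular sums were thus lower in both infarcted groups than in Sham, and atrial markers varied within groups. The atrial sums were higher in MI than in Sham mainly through Nppa, and none of the 6 atrial markers passed the test there. Mitochondrial genes took 37.7% to 43.1% of reads in Sham, 12.6% to 20.6% in MI and 23.0% to 25.5% in MI_ART, and the TMM factors were 0.624 to 0.744 in Sham and 1.14 to 1.28 in the infarcted libraries. The part of these differences in the results below was not tested, and in bulk tissue a change in the number of cells of a type cannot be told apart from a change in RNA per cell.

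After infarction, 9 of the 10 enzymes were higher than in Sham, and the remaining one, Plod2, did not pass the test. Over all tested genes 18.8% were higher and 14.3% lower (33.1% in either direction). The rises ran from 1.77-fold for Plod1 to 79.8-fold for P4ha3. The median log2 fold change of the 10 enzymes was 2.20, against 0.035 for all tested genes. In these 9 enzymes every MI library lay above every Sham library, a separation in this direction that 25.7% of tested genes showed.

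**Figure D1:**
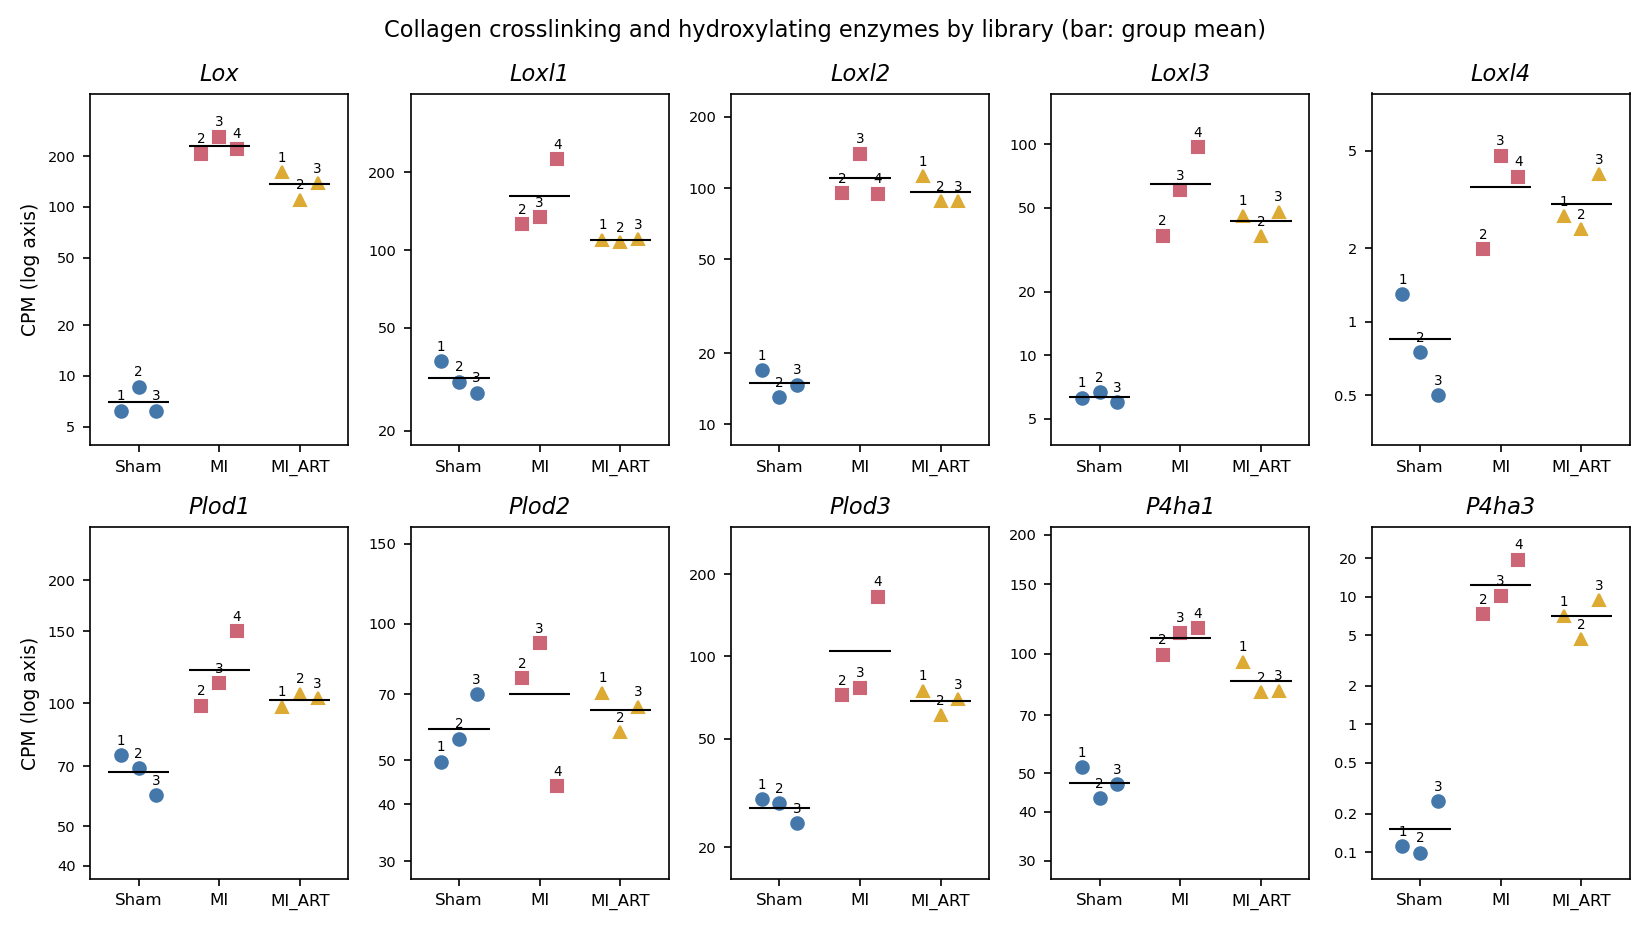
Level of each enzyme (CPM, log axis, scaled per panel) in each library, labelled with its replicate number; circles are Sham, squares MI and triangles MI_ART, and horizontal bars are group means. Sham lies below both infarcted groups in every panel but that of Plod2, where MI 4 is the lowest point at 43.9 CPM.

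Lox, the founding lysyl oxidase, which acts on both collagen and elastin, lies on chromosome 18 (52516060 to 52529867, GRCm38). Its level was 6.23, 8.63 and 6.204 CPM in Sham 1 to 3, 207, 261 and 222 CPM in MI 2, MI 3 and MI 4, and 161, 110 and 139 CPM in MI_ART 1 to 3. The 3 groups did not overlap, with MI_ART between the others. Lox rose 32.7-fold in MI (log2 5.03, SE 0.24, edgeR adjusted p = 2.56e-05).

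Loxl1, an oxidase best known for elastic fibre maintenance (chromosome 9, 58287723 to 58313212), was at 37.1, 30.9 and 28.1 CPM in Sham, 126, 134 and 224 CPM in MI and 110, 107 and 110 CPM in MI_ART. MI 4 held the highest value, and MI_ART was uniform and below every MI library. Loxl1 rose 5.03-fold (log2 2.33, SE 0.24, edgeR adjusted p = 0.000147).

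Loxl2, Loxl3 and Loxl4 carry scavenger receptor cysteine-rich domains in front of the oxidase domain. Loxl2 (chromosome 14, 69608692 to 69695834), an oxidase of collagen including the basement membrane kind, was at 16.9, 13.02 and 14.7 CPM in Sham, 95.2, 140 and 94.5 CPM in MI and 112, 87.9 and 87.9 CPM in MI_ART. Both infarcted groups lay well above Sham and overlapped each other, and Loxl2 rose 7.38-fold in MI (log2 2.88, SE 0.22, edgeR adjusted p = 6.09e-05). Loxl3 (chromosome 6, 83034205 to 83052566) was at 6.27, 6.66 and 5.97 CPM in Sham, 36.9, 60.4 and 96.7 CPM in MI and 45.9, 36.7 and 47.9 CPM in MI_ART. The MI libraries were widely spread, and Loxl3 rose 10.3-fold (log2 3.36, SE 0.32, edgeR adjusted p = 0.000118). Loxl4 (chromosome 19, 42592279 to 42612806), read from only 26 to 70 counts per Sham library, was at 1.29, 0.750 and 0.498 CPM in Sham, 1.98, 4.77 and 3.92 CPM in MI and 2.70, 2.39 and 4.02 CPM in MI_ART. It rose 4.20-fold (log2 2.07, SE 0.45, edgeR adjusted p = 0.00662).

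Of the lysyl hydroxylases, Plod1 and Plod3 rose and Plod2 did not pass. Plod1 (chromosome 4, 147909753 to 147936776), which hydroxylates lysines of the collagen helix, was at 74.7, 69.3 and 59.5 CPM in Sham, 98.7, 112 and 150.01 CPM in MI and 98.1, 105 and 103 CPM in MI_ART. Its rise in MI was the smallest of the 9, at 1.77-fold (log2 0.83, SE 0.18, edgeR adjusted p = 0.00724). Plod3 (chromosome 5, 136987019 to 136996646), which also adds sugars to hydroxylysine, was at 29.99, 28.95 and 24.5 CPM in Sham, 72.0, 76.8 and 166 CPM in MI and 74.9, 60.8 and 69.6 CPM in MI_ART. Apart from MI 4, the infarcted libraries of both groups lay close together. Plod3 rose 3.77-fold in MI (log2 1.92, SE 0.31, edgeR adjusted p = 0.00129).

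Plod2 (chromosome 9, 92539636 to 92608428) hydroxylates the telopeptide lysines from which the stable pyridinoline crosslinks form. Its level was 49.7, 55.8 and 70.0 CPM in Sham, 75.8, 90.7 and 43.9 CPM in MI and 70.4, 57.7 and 65.7 CPM in MI_ART. MI 2 and MI 3 lay above all Sham libraries and MI 4 below them. With all libraries the log2 fold change was 0.26 (SE 0.26, edgeR adjusted p = 0.470). Without MI 4 it was 0.51 and passed (adjusted p = 0.0444), and over the 9 libraries left out in turn no other omission gave a call. With total counts, which do not correct for the share taken by abundant transcripts, it was 1.12 (adjusted p = 0.00387), but the median of all tested genes then stood at 0.88.

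P4ha1, the main catalytic subunit of collagen prolyl 4-hydroxylase (chromosome 10, 59323197 to 59373304), was at 51.8, 43.3 and 46.9 CPM in Sham, 99.6, 113 and 116 CPM in MI and 95.6, 80.1 and 80.8 CPM in MI_ART. The MI libraries were the most alike of any of the 10 enzymes, and MI_ART lay below all of them. P4ha1 rose 2.32-fold (log2 1.21, SE 0.15, edgeR adjusted p = 0.000411). P4ha3, an alternative alpha subunit (chromosome 7, 100285489 to 100319701), was nearly silent in Sham, with 6, 5 and 13 reads in all, or 0.111, 0.0987 and 0.249 CPM. It reached 7.30, 10.2 and 19.5 CPM in MI and 7.06, 4.65 and 9.37 CPM in MI_ART, and rose 79.8-fold in MI (log2 6.32, SE 0.55, edgeR adjusted p = 9.56e-05). The size of this fold rests on the few Sham reads.

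Levels of markers of several cell types moved with these enzymes. Summed activated fibroblast markers (7 genes, none at 0 in all libraries) ran from 214 to 722 CPM in Sham and from 1614 to 2099 CPM in MI. Much of the Sham sums was Acta2, also a smooth muscle gene, at 221 of 337, 576 of 722 and 103 of 214 CPM in Sham 1 to 3. Of these 7 genes 6 rose, among them Postn, the matricellular protein periostin, by 10.3-fold, and Acta2 did not pass. Of 7 resting fibroblast markers 2 were higher in MI and 2 lower, with a median log2 fold change of 0.21. Tcf21, a fibroblast transcription factor, and Lum, the proteoglycan lumican, rose 2.64-fold and 1.56-fold, and Gsn (gelsolin) and Dcn (decorin) fell by 1.81 and 0.57 on the log2 scale, where Dcn turned to 0.28 with total counts. Their summed level, 3107 to 3407 CPM in Sham and 1461 to 2057 CPM in MI, is mostly that of Gsn and Dcn. The 8 macrophage markers ran from 169 to 213 CPM in Sham and from 1070 to 1596 CPM in MI. MI 4, high in Plod3, Loxl1, Loxl3 and P4ha3, also held the highest sums of 4 adipocyte markers (383 CPM, against 6.02 to 7.24 CPM in MI 3 and MI 2) and of 6 cartilage and bone markers (65.3 against 20.4 to 21.9 CPM). Most of the latter sum was Comp (55.4 of 65.3 CPM in MI 4), and Sox9 was lowest in MI 4 of the MI libraries. Among the MI libraries, MI 4 was highest in every marker sum but those of activated fibroblasts and ventricular muscle. Which cells held the enzyme transcripts, and the part of these markers in the enzyme changes, was not tested.

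With artesunate after infarction, none of the 10 enzymes passed the test against MI, where 0.0103% of tested genes did. All 10 had a log2 fold change below 0, from -0.81 for P4ha3 to -0.12 for Plod2. Their median was -0.46, against -0.0030 for all tested genes, and it was -0.27 without MI 4. Without MI 3, Loxl2, Loxl4 and Plod2 lay above 0. At an unadjusted p under 0.05 there were 3 enzymes (6.96% of all tested genes), and DESeq2 and limma-voom also called none of the 10 and likewise gave 3 at the unadjusted threshold. Over the other alternatives this number ran from 1 (among them 2 groups only, without MI_ART 2 and without MI_ART 3) to 6 (without MI 2). It was 5 with total counts.

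The 3 enzymes in the edgeR fit of all libraries were Lox, Loxl1 and P4ha1. In each of them every MI_ART library lay below every MI library, as in 6.52% of tested genes. Lox was 1.69-fold lower with artesunate (log2 -0.75, SE 0.20, edgeR adjusted p = 0.650). Loxl1 was 1.48-fold lower (log2 -0.57, SE 0.23, edgeR adjusted p = 0.709). P4ha1 was 1.28-fold lower (log2 -0.36, SE 0.15, edgeR adjusted p = 0.709). The adjusted p of Lox ran from 0.124 to 0.960 over 19 alternative analyses, with a log2 fold change from -0.89 to -0.62. For Plod2 the difference was -0.12 with an SE of 0.26, and for Loxl2 -0.19 with an SE of 0.20, so differences of the size of these errors were not resolved in either direction.

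Summed over the 5 lysyl oxidases, levels were 55.5 to 67.8 CPM in Sham, 467 to 641 CPM in MI and 344 to 431 CPM in MI_ART. These ranges did not overlap. The 3 lysyl hydroxylases summed to 154 CPM in each Sham library, 246 to 360 CPM in MI and 224 to 243 CPM in MI_ART. Activated fibroblast markers summed to 1272 to 1551 CPM in MI_ART, below every MI library, but none of the 7 passed the test and 3 of them (Cthrc1, Ddah1 and Meox1) lay below every MI library singly. Tnc and Fap had log2 fold changes of -0.042 and -0.0076. The part of these markers in the enzyme levels was not tested.

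Against Sham, the artesunate group gave higher values for 9 of 10 enzymes, where 12.9% of tested genes were higher (20.3% called in either direction). In these 9 no MI_ART library overlapped Sham, as in 25.4% of tested genes. Plod2 again did not pass (log2 0.14, SE 0.26, edgeR adjusted p = 0.752). This comparison shares its Sham libraries with the one above. Lox was 19.4-fold higher (log2 4.28, SE 0.23, edgeR adjusted p = 4.07e-05) and P4ha3 45.5-fold (log2 5.51, SE 0.54, edgeR adjusted p = 0.000217). Loxl3, Loxl2, Loxl4 and Loxl1 were 6.90-fold, 6.46-fold, 3.58-fold and 3.40-fold higher. Plod3 was 2.46-fold, P4ha1 1.81-fold and Plod1 1.51-fold higher. In group means all 10 enzymes ran in the order Sham, MI_ART, MI. The step from Sham was larger than the spread in 9 of them, and the step from MI_ART to MI passed in none. The share of all tested genes in the order Sham, MI_ART, MI was not computed, so the order is not shown to be particular to the enzymes.

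The Plod1 call in this comparison was the least secure, with an adjusted p of 0.0483. It was lost in 9 of 19 alternatives, among them the omission of each Sham library, of MI 3 and of each MI_ART library (adjusted p from 0.00121 to 0.158 over the 19). The Loxl4 call was lost without Sham 2, Sham 3 or MI_ART 3 and without both MI 4 and MI_ART 3 (0.000560 to 0.0680), and the Plod3 call without Sham 3 or MI_ART 1 (0.000248 to 0.0632). In MI against Sham the 9 calls held in all 19 alternatives.

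**Figure D2:**
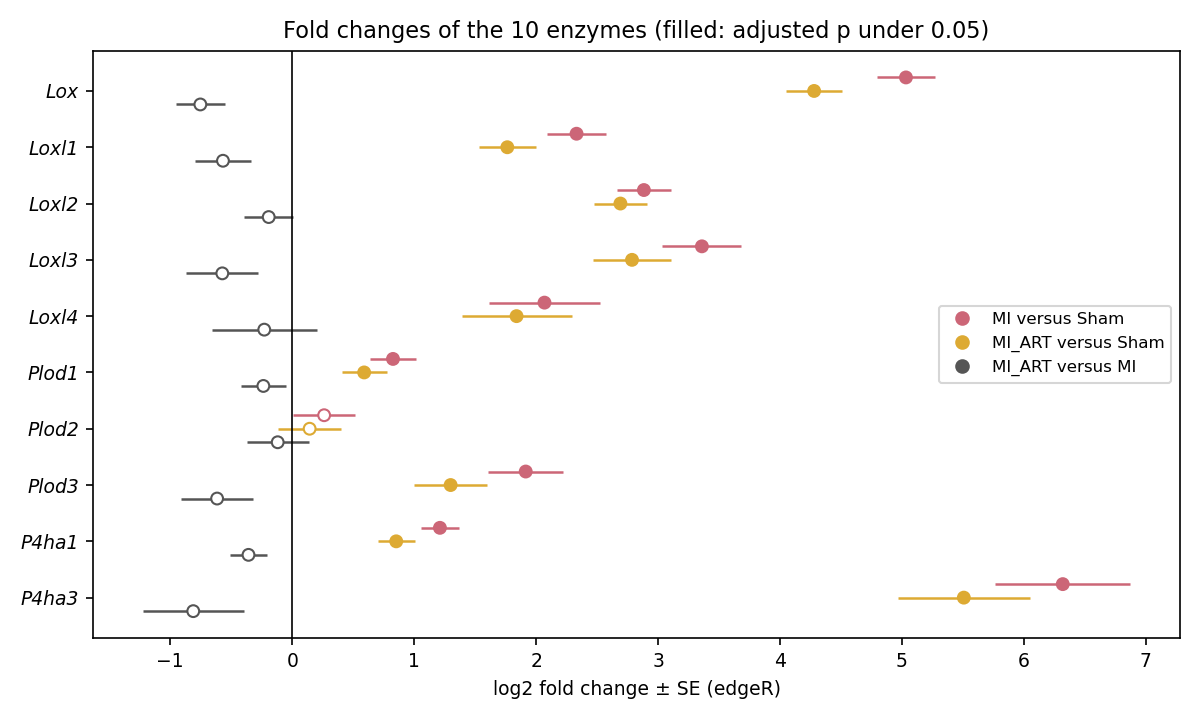
Log2 fold change with its standard error for each enzyme in the 3 comparisons, from the edgeR fit; filled points passed at an adjusted p under 0.05. In both comparisons with Sham 9 of 10 points are filled, and in MI_ART versus MI all 10 lie left of 0 and none is filled.

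The enzymes were next set against their main substrates, the fibrillar collagens, by dividing each enzyme's reads by the summed reads of Col1a1, Col1a2 and Col3a1 in the same library. Such a ratio does not depend on library scaling. Each ratio was compared by a two-sided exact permutation test over libraries, whose smallest p with 3 against 3 is 0.1, so no comparison could pass 0.05. Over the 30 tests the lowest adjusted p was 0.15.

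Lox and P4ha3 were higher relative to collagen after infarction. Lox had 9.90, 16.4 and 13.9 reads per 1000 collagen reads in Sham 1 to 3, 36.3, 39.1 and 29.3 in MI and 28.04, 22.5 and 22.1 in MI_ART. Every MI library lay above every Sham library (2.65-fold, exact permutation p = 0.1), and every MI_ART library lay between them, below MI by 1.44-fold (exact permutation p = 0.1). P4ha3 had 0.176, 0.187 and 0.556 reads per 1000 in Sham, 1.28, 1.52 and 2.58 in MI and 1.23, 0.950 and 1.49 in MI_ART. Its MI value was 6.503-fold that of Sham (exact permutation p = 0.1).

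For 7 other enzymes the ratio was lower after infarction, without overlap. Col1a1, Col1a2 and Col3a1 themselves rose 22.9-fold, 13.1-fold and 11.1-fold, so a gene that rose less than their sum has a lower ratio. The share of all tested genes whose ratio was without overlap was not computed in any of the 3 comparisons, so these counts are not shown to be particular to the enzymes. Plod2 had 78.9, 106 and 156 reads per 1000 in Sham and 13.3, 13.6 and 5.81 in MI, a 10.8-fold lower ratio (exact permutation p = 0.1). The level of Plod2 itself did not pass (log2 0.26, edgeR adjusted p = 0.470), so its lower ratio is mainly the rise of the collagen reads. Plod1 had 119, 131 and 133 in Sham and 17.3, 16.8 and 19.8 in MI, 7.11-fold lower. P4ha1 had 82.3, 82.1 and 105 in Sham and 17.5, 16.9 and 15.4 in MI, 5.38-fold lower. For every enzyme but Loxl3 the difference between the Sham and MI means was larger than the SD within either group. The ratio was 3.55-fold lower for Plod3, 2.93-fold for Loxl4, 2.55-fold for Loxl1 and 1.71-fold for Loxl2, each without overlap. For Loxl3 the groups overlapped (exact permutation p = 0.3), since MI 4 reached 12.8 against 9.96 to 13.3 in Sham. In MI_ART against Sham all 10 ratios were without overlap, Lox and P4ha3 above and the other 8 below, and in MI_ART against MI Lox alone was without overlap among the 10. With 1 library left out of that comparison the number without overlap ran from 1 to 3.

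**Figure D3:**
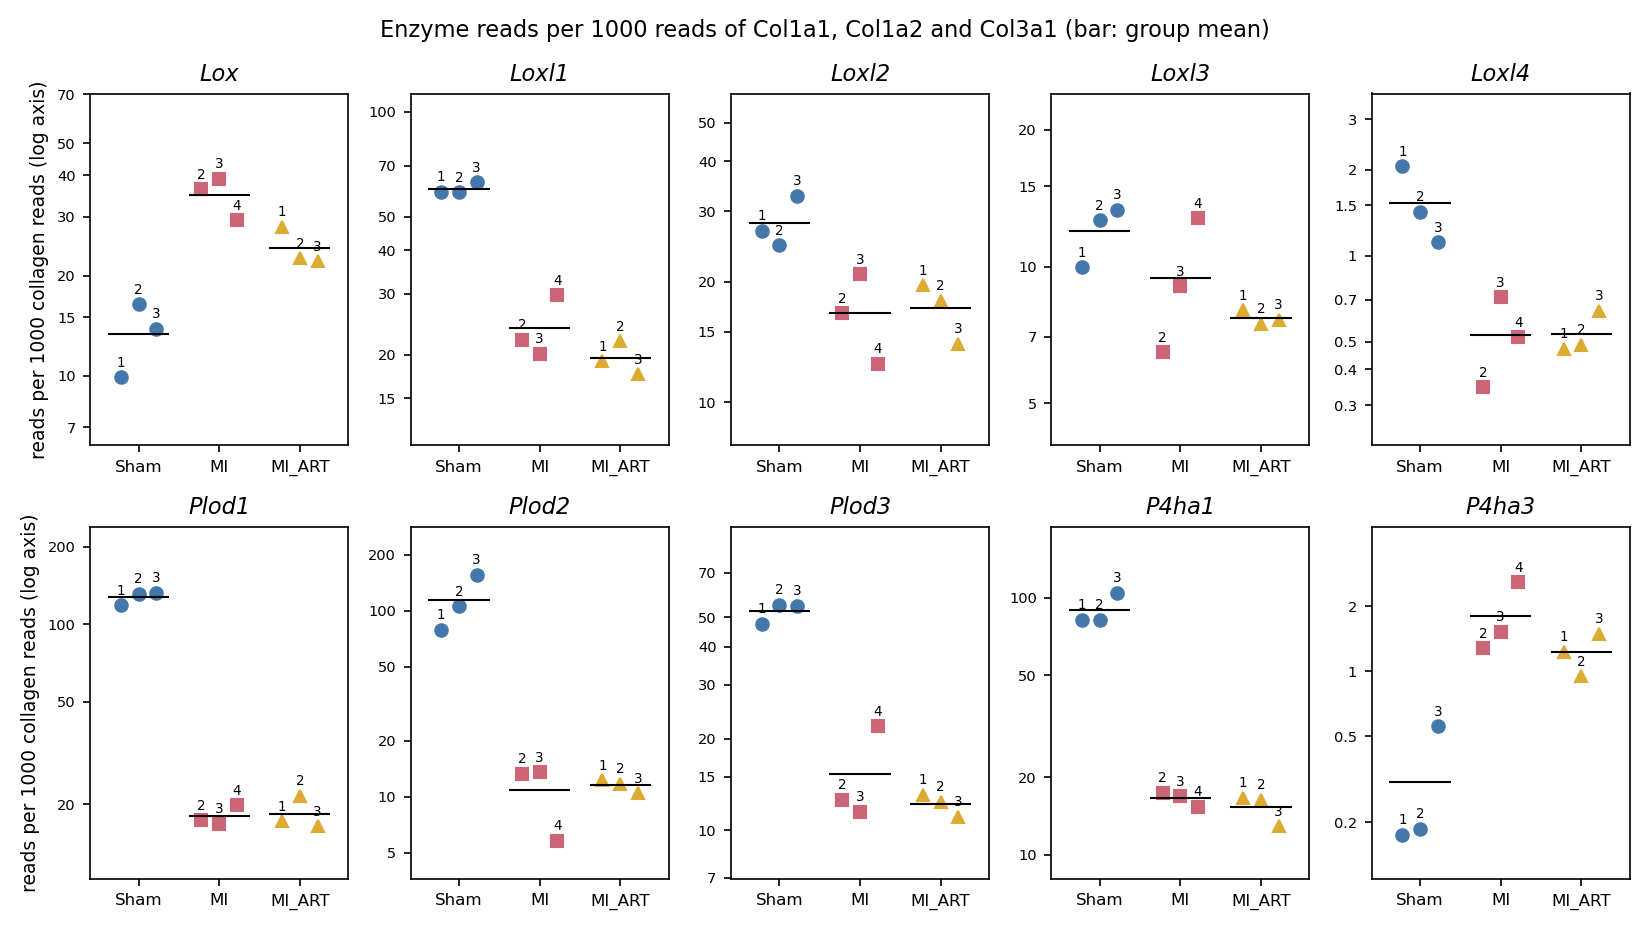
Reads of each enzyme per 1000 reads of Col1a1, Col1a2 and Col3a1 in the same library (log axis, scaled per panel), with replicate numbers and group means as bars. Lox and P4ha3 are higher in MI than in Sham and 7 enzymes are lower without overlap, with Plod2 lower by 10.8-fold. The collagen reads themselves rose in MI, and the level of Plod2 did not pass the test.

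The make-up of each enzyme class was then compared. Shares are of reads and not corrected for transcript length, so they compare one gene between libraries. Values are means ± SD with n = 3 in each group. Of all lysyl oxidase reads, Lox made up 11.6% ± 2.62 in Sham against 40.8% ± 5.40 in MI and 35.0% ± 2.68 in MI_ART. Loxl1 made up 52.3% ± 2.16 in Sham, 28.1% ± 6.37 in MI and 28.3% ± 2.83 in MI_ART. The shares of Loxl2 and Loxl3 overlapped between all 3 groups, at 14.7% to 26.5% and 7.90% to 15.1%. Among the lysyl hydroxylases Plod3 made up 18.0% ± 1.88 in Sham, 34.3% ± 10.3 in MI and 29.1% ± 1.81 in MI_ART, without overlap with Sham, while in MI 4 Plod2 made up 12.2% against 25.7% to 45.5% in all other libraries. Of the reads of P4ha1 and P4ha3 together, P4ha3 made up 0.323% ± 0.178 in Sham, 9.82% ± 4.01 in MI and 7.58% ± 2.52 in MI_ART. A further alpha subunit gene, P4ha2, was not among the enzymes taken, so these are not shares of the whole class. None of the 10 shares separated MI_ART from MI without overlap.

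**Figure D4:**
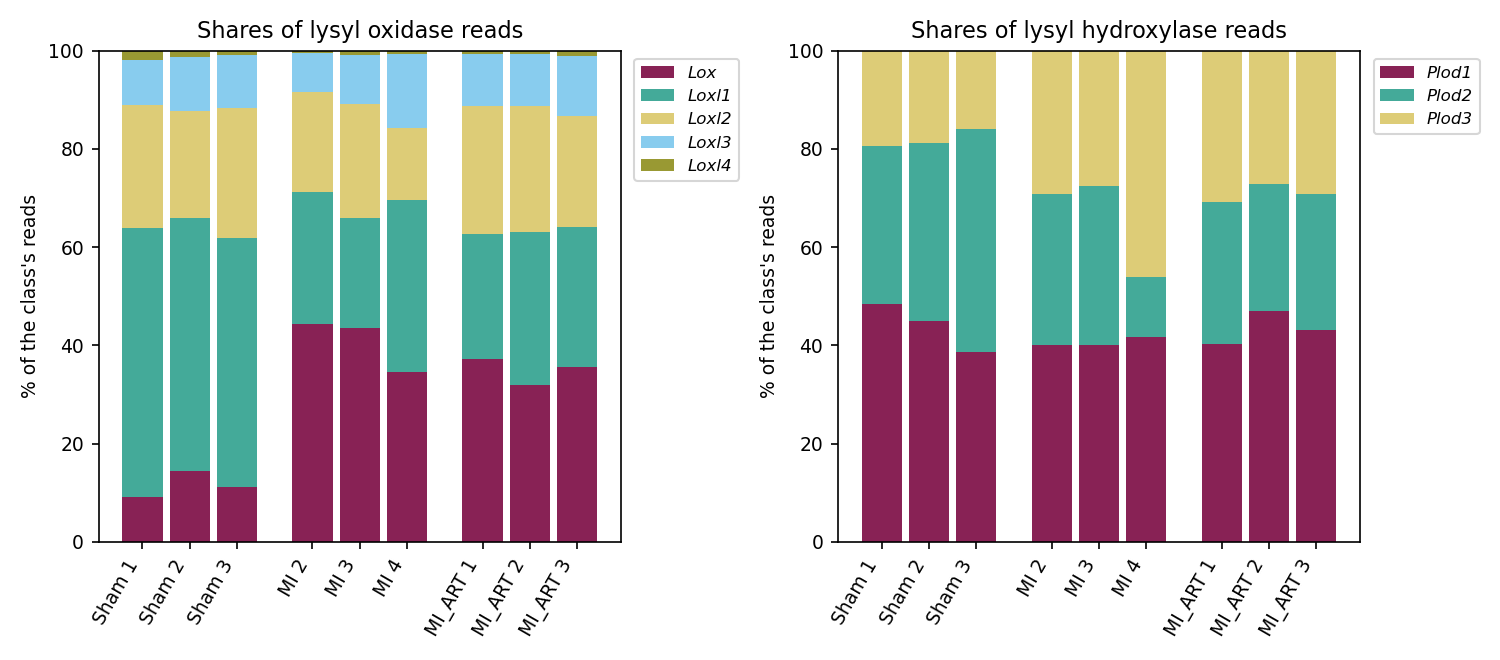
Share of each lysyl oxidase among all lysyl oxidase reads (left) and of each lysyl hydroxylase among all lysyl hydroxylase reads (right), in percent for each library. Lox takes 9.19% to 14.4% in Sham and 32.02% to 44.3% in the 6 infarcted libraries, and in MI 4 Plod3 takes 46.1%.

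The rest of the collagen pathway was followed in 8 lists with 105 genes, of which 104 had a row and 99 were tested. In MI against Sham 44 of the 99 were higher and 11 lower, where 18.8% of all tested genes were higher and 14.3% lower. In MI_ART against Sham 40 were higher and 5 lower, where 12.9% of all tested genes were higher and 7.41% lower. With total counts the first split was 74 higher and 1 lower and the second 68 higher and 0 lower, with the median of all tested genes at 0.88 and 0.75, so the lower calls are relative to that shift.

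The list median was highest for the substrates. Of 10 fibrillar collagen and elastin genes 8 were higher in MI and none lower, with a median log2 fold change of 3.44. Col1a1, Col1a2, Col3a1 and Col5a2, chains of collagens I, III and V, rose 22.9-fold, 13.1-fold, 11.1-fold and 9.83-fold. Lox (log2 5.03) and P4ha3 (6.32) were above Col1a1 (4.51), and the other 8 enzymes were below the list's median. With artesunate none of the 10 passed against MI, at a median of -0.41. Elastin, singled out after its values were seen, was at 388, 480 and 871 CPM in MI and 53.3, 218 and 47.6 CPM in MI_ART, without overlap (log2 -2.45, SE 0.63, edgeR adjusted p = 0.650). Its low values were in MI_ART 1 and MI_ART 3, the libraries with the lower atrial marker sums of that group (2862 and 1312 CPM, against 12382 CPM in MI_ART 2). In MI both were highest in MI 4. In Sham the order was the reverse, since Sham 2 had the lowest sum (1751 CPM) and the highest elastin (71.6 CPM, against 34.6 and 27.9 CPM). The summed 6 smooth muscle and pericyte markers were highest in the same library as elastin in every group. Sham 2 had 1436 CPM against 1045 to 1067 CPM in the other Sham libraries. MI 4 had 830 against 530 to 568 CPM, and MI_ART 2 had 897 against 637 to 706 CPM. Singly, Myh11, Cnn1 and Tagln were highest in these libraries in every group, Kcnj8 and Notch3 in Sham only, and Rgs5 in none. The part of atrial or smooth muscle content in the elastin difference was not tested.

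Of 21 collagen chaperones and other modifiers of the endoplasmic reticulum, 10 were higher and 3 lower in MI, with a median of 0.95. P4hb, the beta subunit that partners P4ha1 and P4ha3, rose 2.92-fold, and P3h1, a prolyl 3-hydroxylase, 3.26-fold. Kdelr3, a retrieval receptor of the secretory pathway, rose 5.67-fold, and Creb3l1, a transcription factor for secreted matrix, 7.49-fold. The lower genes, named with Serpinh1 after their values were seen, were Colgalt2, which adds galactose to hydroxylysine, Tmem38b, an endoplasmic reticulum potassium channel, and Mia2, a cargo export factor, and none of them passed with total counts, where Mia2 turned to 0.14. Serpinh1, the collagen chaperone HSP47, was at 183, 161 and 94.8 CPM in Sham and 229, 298 and 353 CPM in MI without overlap, and did not pass (log2 1.00, edgeR adjusted p = 0.0819).

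Of 15 tested genes for procollagen processing and lysyl oxidase activation, 8 were higher in MI and none lower, with a median of 1.88. Bmp1, which cleaves procollagen and the lysyl oxidase propeptide, rose 4.36-fold, and Adamts2, which removes the amino propeptide, 4.69-fold. Fn1 (fibronectin) rose 21.9-fold and Postn 10.3-fold, both proteins that bind Bmp1 or lysyl oxidase in the matrix. Of 6 other crosslinking enzymes 5 were higher and 1 was lower. Tgm2, tissue transglutaminase, rose 3.54-fold, Qsox1, a sulfhydryl oxidase, 2.99-fold, and Pxdn, the peroxidase that crosslinks collagen IV, 1.99-fold. Tgm1, the keratinocyte transglutaminase, rose 13.5-fold from 0.182 CPM. Qsox2, also singled out after its values were seen, was lower (log2 -0.54) and turned to 0.32 with total counts.

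Of 13 tested genes for copper, ascorbate and iron supply, the cofactors of these enzymes, 3 were higher and 1 lower, with a median of 0.28, which is close to the shares over all tested genes. Slc39a13, the ZIP13 metal transporter, rose 2.62-fold, and the glucose and dehydroascorbate carriers Slc2a1 and Slc2a3 rose 2.90-fold and 2.96-fold. Sco1, a copper chaperone of cytochrome oxidase, was lower (log2 -0.72) and turned to 0.13 with total counts. Of 4 other amine oxidases and lysine demethylases none was higher, and Kdm1b was lower (log2 -1.10), though not with total counts (-0.25, adjusted p = 0.337).

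P4ha1, Plod2, Lox and Loxl2 are known targets of hypoxia-inducible factors. Of 16 genes of the hypoxia response and other prolyl hydroxylases 1 was higher and 5 were lower in MI, and the list median was -0.29, or 0.54 with total counts. Car9, a carbonic anhydrase, rose 8.93-fold from 0.431 CPM. Egln1, the main oxygen-sensing prolyl hydroxylase, fell from 333 to 106 CPM (log2 -1.65) and passed with total counts too. Epas1, which encodes HIF-2 alpha, and Pdk1, a pyruvate dehydrogenase kinase, had log2 fold changes of -1.24 and -1.17, and neither passed with total counts (adjusted p = 0.0974 and adjusted p = 0.321).

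Of 14 TGF-beta signalling genes 9 were higher in MI and none lower, with a median of 0.74. Ltbp2, a matrix protein of the latent TGF-beta binding family, rose 11.95-fold, Ccn2 (connective tissue growth factor) 4.78-fold and the ligand gene Tgfb3 2.97-fold. Across the 8 lists no gene passed in MI_ART against MI by edgeR or limma-voom, and DESeq2 called 1, Ccn2. Ccn2 was at 63.4, 72.5 and 73.7 CPM in Sham, 309, 375 and 319 CPM in MI and 162, 170 and 160 CPM in MI_ART. The 3 groups were tight and apart, and the MI_ART value was 2.04-fold below MI (log2 -1.03, SE 0.15, edgeR adjusted p = 0.237, DESeq2 adjusted p = 4.80e-07).

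**Figure D5:**
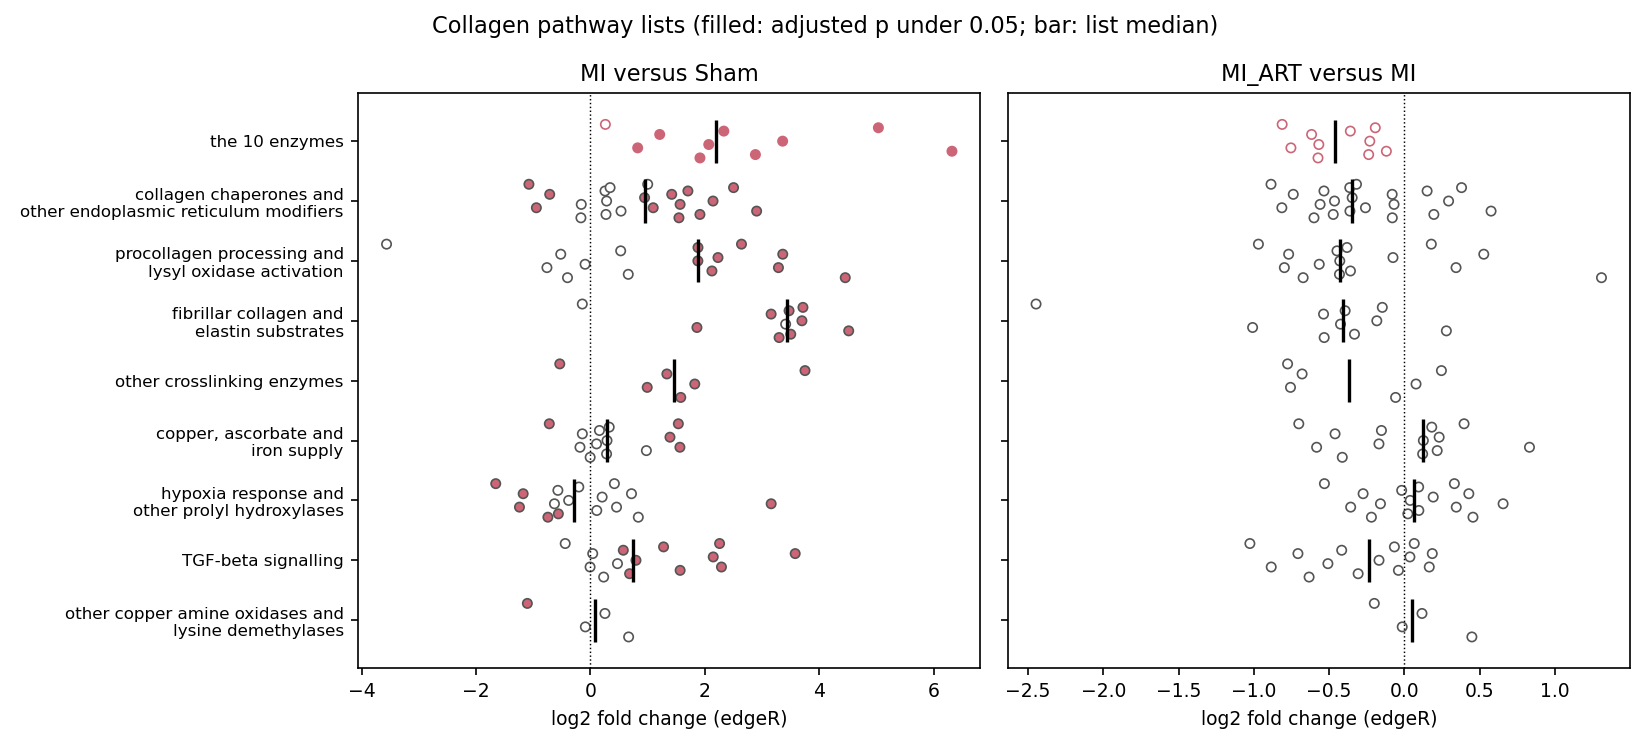
Log2 fold changes of the 10 enzymes and of the tested genes of 8 collagen pathway lists in MI versus Sham (left) and MI_ART versus MI (right); each circle is a gene, filled where it passed at an adjusted p under 0.05, and bars are list medians. The substrates' median of 3.44 is the highest on the left, and no circle is filled on the right.

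The genes whose pattern over the 9 libraries was most like that of an enzyme were found by the root mean square difference of log2(CPM + 0.5), each gene set to its own Sham mean, among 12851 genes at a mean of at least 1 CPM. For Lox they were the cell cycle genes Pclaf (0.201), Ccnb1 (0.27) and Kif2c (0.29), which are all under 0.5 CPM in Sham, where the added 0.5 shrinks their change. For Plod1 they were Nynrin (0.0694), Adcy4 (0.0754) and Arhgef2 (0.0799). For P4ha1 they were Medag (0.0820), Ssr1 (0.10) and Ddx39 (0.10). These differences are a description of 9 libraries in 3 groups.

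The counts of 4 enzymes could hold reads of overlapping annotated genes, since the strand setting is not given in the sources used here. Loxl3 overlaps 1301 bases of the protein-coding gene Htra2, Plod3 overlaps 941 bases of Znhit1, Loxl2 shares 31779 bases of its span with a long noncoding RNA, and Plod2 shares 3234 bases with another. Htra2 had 706 to 1042 reads in Sham, more than the 312 to 340 reads of Loxl3, and 1388 to 3341 in MI. Znhit1 had 955 to 1134 reads in Sham, against 1278 to 1627 for Plod3, and 1990 to 3721 in MI. Both were highest in MI 4, the library where Loxl3 and Plod3 were highest, and their part in those values was not tested. The noncoding RNA at Loxl2 had 114 to 126 reads in Sham, 310 to 375 in MI and 299 to 914 in MI_ART, where Loxl2 had 659 to 916, 8364 to 13023 and 7035 to 9108.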

How the data were processed

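The authors deposited whole-number counts per Ensembl gene, not normalized, per the file headers. Per the submitters' processing notes, HISAT (no version), featureCounts (1.5.0-p3) and DESeq (1.8.3) were used with GRCm38. The strand and multi-mapping settings were not given in the sources used here. The 9 per-sample files hold the same values as the table.

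The table was tested with edgeR 4.0.16 (R 4.3.3): filterByExpr, TMM scaling, and 1 quasi-likelihood fit over all libraries with a mean for each group (biological coefficient of variation 0.388). P-values were adjusted by Benjamini-Hochberg over the 19326 tested genes, with calls under 0.05. An adjusted p with no tool named is from edgeR, also with a library left out or with total counts. Alternatives were DESeq2 1.42.0, limma 3.58.1 (voom), other scalings and filters, 2 groups only, a replicate block and omitted libraries.

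Positions come from a RefSeq table of the same build. Its lengths are genomic spans, so the planned shares per transcript length became shares of counts. In each pathway list the 4 called genes of smallest p were named, besides all 10 enzymes. One such pathway gene is not reported here. The enzymes and lists were chosen with earlier results of these data known. Floors cover counting error only.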

Additional observations from a re-analysis of the deposited data

How the results depend on the processing

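Of the 10 enzymes, 9 to 10 were called in MI against Sham over 19 alternatives, none in MI_ART against MI, and 6 to 10 in MI_ART against Sham. The count of pathway genes called in MI_ART against Sham, 45, was 68 with total counts and ran from 27 (without Sham 3) to 58 (without MI 4) with 1 library left out. In MI_ART against MI it was 0 by edgeR and 1 by DESeq2. Over all genes that comparison gave 2 calls by edgeR and 82 by DESeq2. With total counts 93.7% of all calls in MI against Sham were higher, against 56.7%, and 98.5% against 63.5% in MI_ART against Sham. With 1 library left out, the log2 fold change in MI_ART against MI ran from -0.32 to 0.021 for Loxl2, -0.52 to 0.044 for Loxl4 and -0.37 to 0.11 for Plod2, the values above 0 being those without MI 3. The number of enzymes whose ratio to collagen did not overlap between MI_ART and MI, 1, was 2 over Col3a1 alone and 1 to 3 with 1 library left out. Over Col3a1 alone the log2 difference of the ratio turned to -0.030 for Loxl2, -0.025 for Loxl4 and -0.067 for Plod1. With 1 library left out it ran from -0.13 to 0.24 for Loxl2, -0.48 to 0.011 for Loxl3, -0.20 to 0.32 for Loxl4, -0.097 to 0.10 for Plod1, -0.23 to 0.39 for Plod2 and -0.45 to 0.014 for Plod3. The cause of these changes was not tested.

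The replicate numbers of the titles were tried as a replicate block. In their deviations from the group means, same-numbered libraries had correlations of 0.027, 0.0075 and 0.092 between Sham and MI_ART, 0.0011 and 0.192 between Sham and MI, and 0.011 and 0.108 between MI and MI_ART. All 7 were above 0, but most were under 0.1 and not every library was nearest to its own number. Pairs with unlike numbers ran from -0.194 to 0.143. With 3 libraries per group these values cannot settle whether same-numbered libraries are paired. MI 4 has a number no other library has, so the block fit takes nothing from it. With the block, 9, 0 and 9 enzymes were called in MI against Sham, MI_ART against MI and MI_ART against Sham, and 61, 0 and 54 pathway genes. Read shares were not computed per length, and no alternative to them was run.

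Low counts limit Loxl4 and P4ha3, which had 26 to 70 and 5 to 13 reads per Sham library. The other enzymes had at least 312 reads in every library, and the spread between libraries limits them.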
